A study of Homo sapiens with 10 samples.

Results

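The genes described here encode the core of the spliceosome and the proteins that steer it, in A375 melanoma xenografts with and without induction of Omomyc. They were taken by gene symbol: every symbol starting with SRSF, HNRNP, SNRP, SF3A or SF3B, and U2AF1, U2AF2, SF1, PTBP1, PRMT1 and PRMT5. Of the 17492 genes tested, 59 met the rule. PTBP1, and SRSF2, HNRNPK and SNRPN of the families, had no row under that symbol in the table used and were not analysed here.

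A375 is an established human melanoma cell line, and the tumours were subcutaneous xenografts in BALB/c nude mice, a strain that lacks a thymus and so mature T cells. All tumour cells carried inducible Omomyc, a dominant-negative MYC fragment. Drinking water held doxycycline, which induced Omomyc, in the doxycycline group and its vehicle in the vehicle group, from a tumour volume of 100 mm3 until excision 7 days later. Each group had 5 tumours labelled as biological replicas, with 1 Affymetrix array each. No group received doxycycline without Omomyc, so the effects of the agent and of Omomyc cannot be told apart. The age of the mice, the promoter that drives Omomyc and the number of clones are not stated by the labels, and a single cell line was analysed.

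Introns are removed from pre-mRNA by small nuclear ribonucleoproteins, the U snRNPs. A ring of Sm proteins is loaded onto most of their RNAs by the SMN complex, after PRMT5 has methylated the arginines of some Sm proteins. U1 recognises the 5′ end of an intron, and SF1, U2AF and then the U2 snRNP with SF3A and SF3B recognise its 3′ end. SR proteins mostly favour the use of an exon, and many hnRNPs oppose it. MYC is known to raise the expression of several of these genes in tumours, among them SRSF1, HNRNPA1, HNRNPA2B1, PTBP1 and PRMT5.

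With limma and Benjamini-Hochberg adjustment over all genes, 4 genes that encode snRNP proteins fell in the doxycycline-treated tumours: SNRPF, by 39.0%, SNRPA, SNRPG and SNRPE. They are 4 of the 59 genes, or 6.78%, and 5.95% of all genes tested fell, so the share was close to that of all genes. No gene of the set rose at an adjusted p of 0.05 (limma, 0 of 59, against 5.03% of all genes). Before adjustment, 16 of the 59 were lower at p under 0.05, against 12.1% of all genes, and 2 were higher, against 12.5%.

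The difference, doxycycline minus vehicle on the log2 scale, was negative in 46 of the 59 genes, or 78.0%, against 47.6% of all genes. The median difference was -0.17, and that of all genes was 0.02. In 13 of the 59, or 22.0%, all 5 doxycycline arrays lay below all 5 vehicle arrays, against 6.43% of all genes. In 3, or 5.08%, they lay above, against 5.38% of all genes. The differences were small: 2 of the 59 reached 1.5-fold, and in 44 the 95% confidence interval lay wholly within 1.5-fold either way. In bulk tumours, fewer cells of a type and less RNA per cell cannot be told apart.

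**Figure D1:**
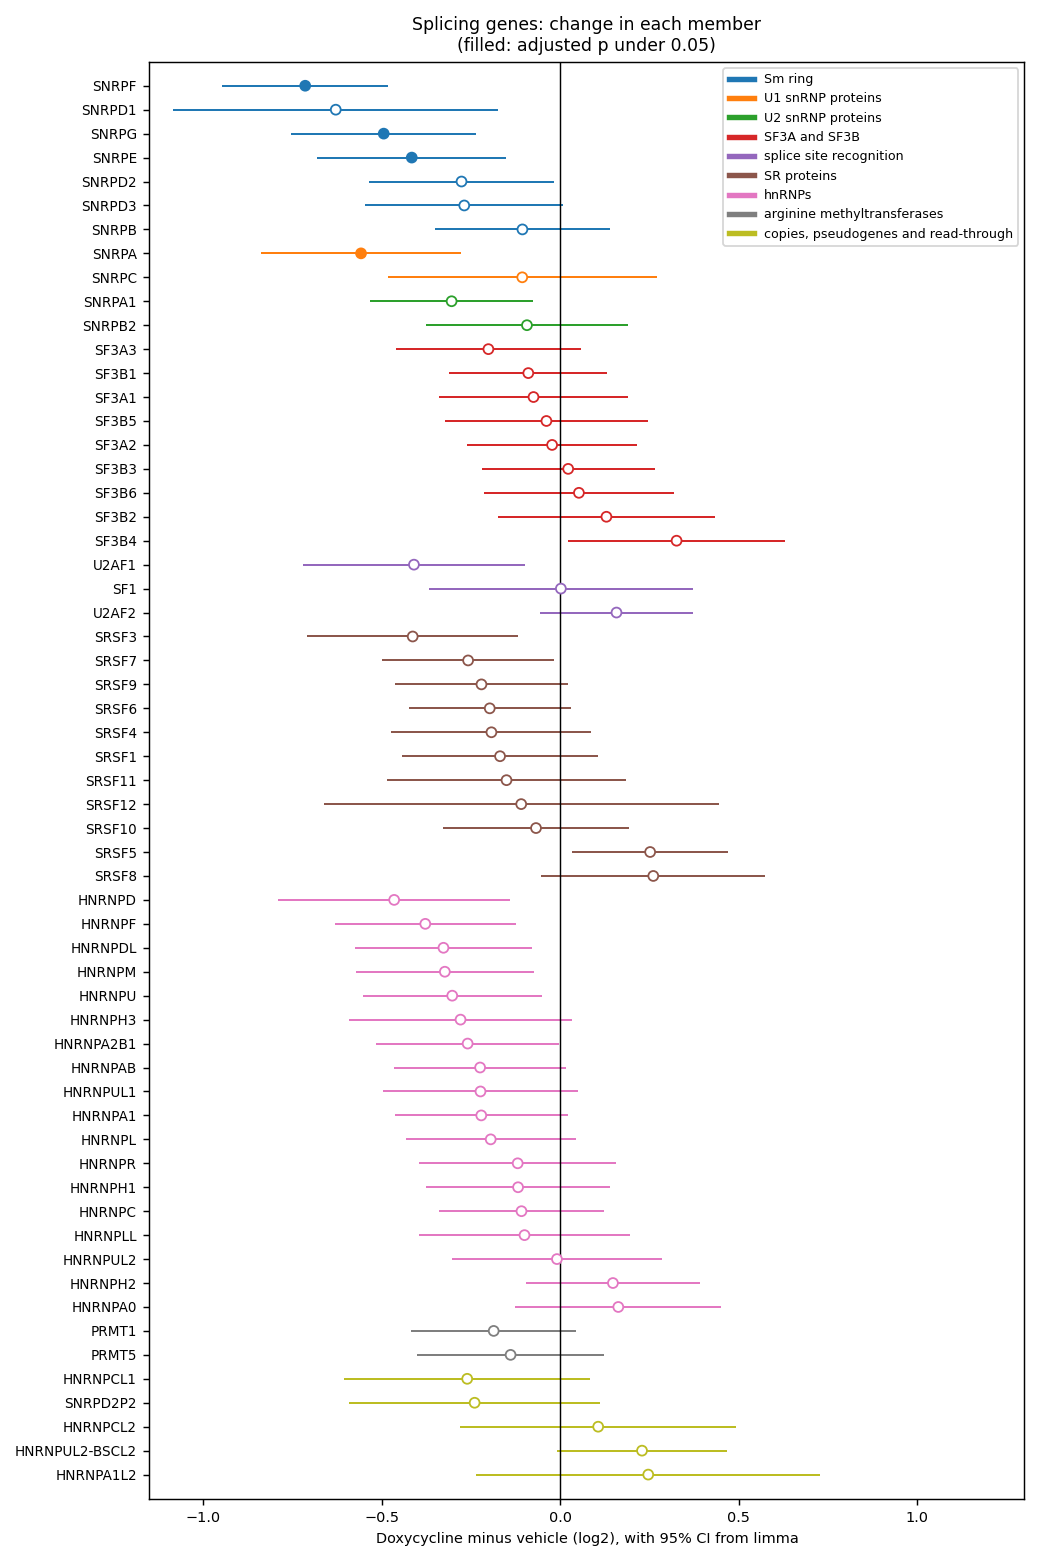
Difference between doxycycline and vehicle (log2, x axis) for each of the 59 splicing genes (y axis), coloured by class, with the 95% confidence interval from limma and 5 arrays per group. Filled circles mark the 4 genes with an adjusted p under 0.05, all of them snRNP proteins; most of the other points also lie left of 0.

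**Figure D2:**
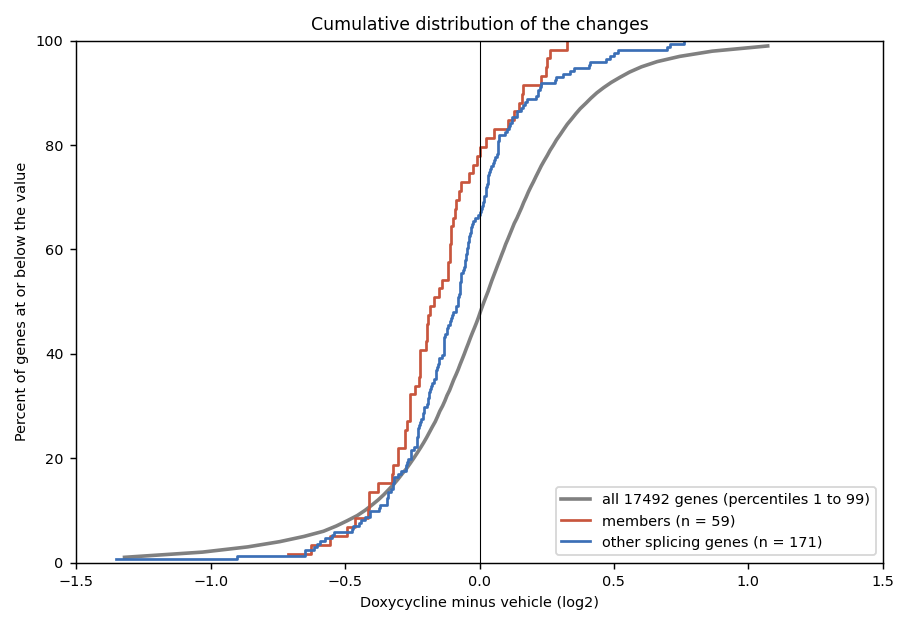
Percent of genes (y axis) with a difference at or below the value on the x axis (doxycycline minus vehicle, log2), for the 59 splicing genes, the 171 other splicing genes and all 17492 genes. The curve of the 59 crosses 0 at 78.0% and spans -0.71 to 0.33, while that of all genes crosses 0 at 47.6% and has longer tails on both sides.

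The number called depended on how limma pooled the variances of genes. With variances moderated along their trend with expression and robustly, 16 of the 59 fell, against 7.52% of all genes, and 2 rose, against 6.86%. The 18 were the 4 genes above, HNRNPF, HNRNPM, HNRNPDL, HNRNPD, HNRNPU, HNRNPA1, HNRNPA2B1, SRSF3, U2AF1, SNRPA1, SNRPD1 and SNRPD2, all lower, and SRSF5 and SF3B4, both higher. With an unmoderated test of unequal variances on each gene alone, 6 fell, against 4.04% of all genes, and 2 rose, against 3.30%. Without the dimmest 30% of genes, 8 of the 57 that were fitted fell, and 1225 of all 12244 genes fitted there fell. Counting both directions, 14.0% of the 57 were called, all of them lower, against 18.8% of all genes fitted. That 18.8% holds 1225 lower and 1082 higher genes, so it is not the share of falls alone. The call of SNRPF was kept under all 21 alternatives tried. Without vehicle array 1 or vehicle array 4, 2 genes of the set fell, SNRPF and SNRPA.

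The labels were checked against MYC, from which Omomyc derives. The MYC probe set was at 6.13 to 6.58 in the vehicle arrays and at 7.24 to 7.96 in the doxycycline arrays, and it rose by 1.34 (limma, adjusted p = 0.000348). The probe set does not tell transcripts of Omomyc from those of the cells' own MYC. Of 10 melanocytic lineage markers ERBB3 rose, and SOX10 (7.40 in vehicle and 7.48 in doxycycline tumours) and S100B (6.08 and 6.88) had means above the array medians of 5.45 to 5.56. Doxycycline array 5 was apart from the other 4 in these markers: ERBB3 was at 3.97 there and at 5.78 to 6.51 in the others, S100B at 5.06 against 7.21 to 7.48, and SOX10 at 6.49 against 7.45 to 7.85. The mean over the 10 markers was 4.19 in that array, the lowest of all 10 arrays. The pigment genes PMEL, MLANA, TYR and TYRP1 lay far below them, at 2.31 to 3.23 in vehicle tumours. All 10 proliferation markers fell, with a median of -0.75, and their mean level was 8.13 to 8.59 in the vehicle arrays and 7.27 to 7.78 in the doxycycline arrays. Of 12 macrophage and monocyte markers 2 rose, LYZ and CD14, against 5.03% of all genes. Among the 12, 8 had higher and 4 had lower means in doxycycline tumours, the lower ones being CSF1R, C1QA, C1QB and C1QC. The mean of those 12 was 4.46 to 4.67 in vehicle and 4.69 to 5.07 in doxycycline arrays, and 10 of the 12 lay below the array median. None of 8 endothelial, 8 fibroblast and pericyte, 7 lymphocyte or 4 erythroid markers passed limma's test at an adjusted p of 0.05 (0 of 27). Before adjustment, 2 of the 27 were higher, against 12.5% of all genes, and 4 were lower, against 12.1%. The part of proliferation, of macrophages and of the melanocytic markers in the differences of the splicing genes was not tested. Doxycycline arrays 4 and 5 correlated least with their group (mean r of 0.973 and 0.967, against 0.976 to 0.977 for the other 3). Values without them, or without array 5, stand beside those of the 31 genes followed through the alternatives whose difference moved by over 1.5 times. For SNRPB2 the range over the fits that left out 1 array is given instead.

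Among the 7 genes of the Sm ring, all had lower means in doxycycline tumours, with a median difference of -0.42. Of the 7, 3 fell, against 5.95% of all genes: SNRPE, SNRPF and SNRPG. The proteins of these 3 genes bind each other as a trimer before they join the ring. SNRPF was at 8.98, 9.01, 9.00, 9.13 and 9.05 in vehicle arrays 1 to 5 and at 8.32, 8.30, 8.46, 8.13 and 8.38 in doxycycline arrays 1 to 5. No doxycycline array reached the lowest vehicle array, and the gap between the groups was wider than the whole range of either. SNRPF fell by 0.71 (SE 0.11, 95% CI -0.95 to -0.48, limma, adjusted p = 0.00135).

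SNRPG was at 9.09, 8.89, 8.84, 9.26 and 8.93 in the vehicle arrays and at 8.48, 8.56, 8.38, 8.65 and 8.48 in the doxycycline arrays. The groups did not overlap, and the highest doxycycline array was the fourth. SNRPG fell by 0.49 (95% CI -0.75 to -0.24, limma, adjusted p = 0.0192). With vehicle array 1 left out its adjusted p was 0.0528, and with vehicle array 4 left out it was 0.051.

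SNRPE was at 10.87, 10.55, 10.63, 10.91 and 10.68 in the vehicle arrays and at 10.15, 10.20, 10.38, 10.51 and 10.32 in the doxycycline arrays. The groups were separated by a narrow gap, between vehicle array 2 and doxycycline array 4. SNRPE fell by 0.42 (95% CI -0.68 to -0.15, limma, adjusted p = 0.0466). This call was the least stable of the 4: it was lost in 8 of the 10 fits that left out 1 array, with an adjusted p of 0.0654 to 0.113. It was kept without vehicle array 2, without doxycycline array 4 and without doxycycline arrays 4 and 5 together, and it was lost with the replicate number as a block (adjusted p = 0.0792).

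SNRPD1 and SNRPD2 encode the pair of Sm proteins that binds first to the SMN complex partner GEMIN2. SNRPD1 was at 9.46, 9.12, 8.92, 9.07 and 9.12 in the vehicle arrays and at 8.06, 8.21, 8.34, 8.69 and 9.25 in the doxycycline arrays. Doxycycline array 5 lay within the vehicle range, while the other 4 lay below all vehicle arrays. The difference of -0.63 (SE 0.21, 95% CI -1.08 to -0.17) did not pass (limma, adjusted p = 0.0778). Without doxycycline array 5 it was -0.81 (adjusted p = 0.00708), and without doxycycline arrays 4 and 5 it was -0.94 (adjusted p = 0.00377). Over all 10 fits that left out 1 array, the difference of SNRPD1 ran from -0.81 to -0.52 (limma, adjusted p from 0.00708 to 0.172). SNRPD2 differed by -0.28 (adjusted p = 0.173), and doxycycline array 5 overlapped the vehicle arrays.

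SNRPB and SNRPD3, the remaining pair of the ring and carriers of arginines methylated by PRMT5, differed by -0.11 (adjusted p = 0.629) and by -0.27 (adjusted p = 0.219). SNRPB was at 8.78 to 9.13 in vehicle and 8.74 to 8.89 in doxycycline arrays. SNRPD3 was at 8.98 to 9.52 and 8.92 to 9.13. Both genes overlapped between the groups.

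**Figure D3:**
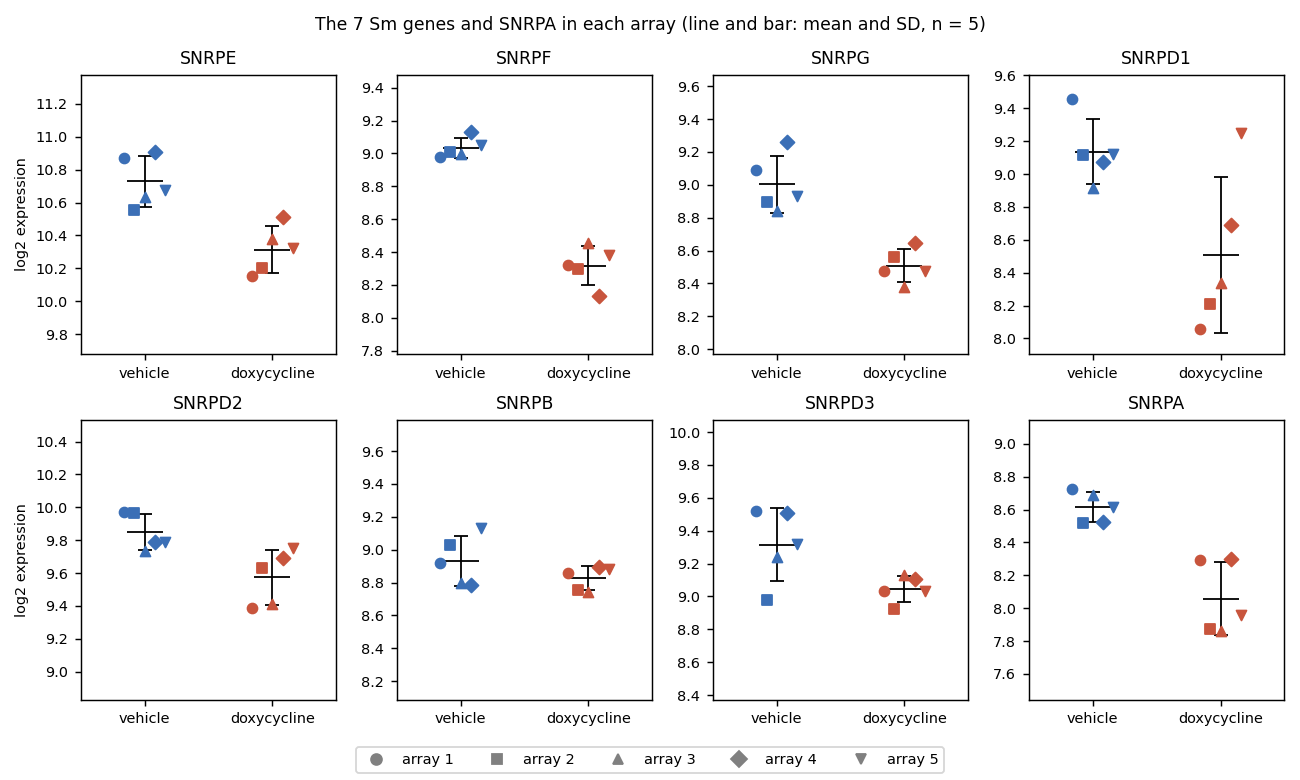
Expression (log2, y axis) of the 7 Sm genes and of SNRPA in each vehicle (blue) and doxycycline (red) array, 1 symbol per array number, with the mean and SD of 5 arrays; every panel spans the same number of log2 units. The groups are apart in SNRPE, SNRPF, SNRPG and SNRPA, and in SNRPD1 doxycycline array 5, at 9.25, lies among the vehicle arrays.

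Of the genes for proteins particular to U1 and U2, only SNRPA passed the test. SNRPA, the U1 protein that binds a stem-loop of U1 RNA, was at 8.73, 8.52, 8.69, 8.53 and 8.62 in the vehicle arrays and at 8.29, 7.87, 7.86, 8.30 and 7.96 in the doxycycline arrays. All doxycycline arrays lay below all vehicle arrays, with arrays 1 and 4 closest to them. SNRPA fell by 0.56 (95% CI -0.84 to -0.28, limma, adjusted p = 0.0155), or 32.1%, and was called in all 10 fits that left out 1 array (adjusted p from 0.0123 to 0.0446). SNRPC, the zinc finger protein of U1, differed by -0.11 (adjusted p = 0.771). It had its highest value of all arrays, 7.87, in doxycycline array 5. With that array left out the difference was -0.26 (adjusted p = 0.265), and with arrays 4 and 5 left out it was -0.32 (adjusted p = 0.172).

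SNRPA1 of the U2 snRNP was at 8.77 to 8.88 in vehicle and at 8.39 to 8.67 in doxycycline arrays, with no overlap. It differed by -0.30 (95% CI -0.53 to -0.08) and did not pass (limma, adjusted p = 0.0889). The unmoderated test called SNRPA1 lower (adjusted p = 0.0407 over all genes), as did limma without the dimmest genes. With the replicate number as a block its adjusted p was 0.168 (limma), and without doxycycline arrays 4 and 5 it was 0.15 (limma). SNRPB2, its partner in U2, differed by -0.09 (adjusted p = 0.732) with overlapping groups. With 1 array left out, the difference of SNRPB2 ran from -0.15 to -0.04 (limma, adjusted p from 0.58 to 0.896).

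The SF3A and SF3B genes, whose products hold U2 at the branch site, had a median difference of -0.02. With limma 0 of the 9 passed at an adjusted p of 0.05. Before adjustment 1 was higher, against 12.5% of all genes. The lowest was SF3A3, at -0.20 (adjusted p = 0.335). SF3B1, a gene often mutated in leukaemia and in uveal melanoma, was at 7.91 to 8.10 in vehicle and 7.83 to 8.03 in doxycycline arrays. The groups overlapped, and the interval of its difference, -0.31 to 0.13, holds no change of 1.5-fold (limma, adjusted p = 0.66). With doxycycline arrays 4 and 5 left out SF3B1 differed by -0.06 (adjusted p = 0.803).

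SF3B4 went the other way. It was at 10.02, 9.57, 9.99, 10.03 and 10.11 in the vehicle arrays and at 10.19, 10.12, 10.22, 10.60 and 10.20 in the doxycycline arrays. The doxycycline values were higher throughout, by a margin far smaller than the range of either group. The difference of 0.33 was the highest of the 59 genes and did not pass (95% CI 0.02 to 0.63, limma, adjusted p = 0.17).

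Among the factors that bind the 3′ end of the intron, U2AF1 and U2AF2, the subunits of one dimer, had differences of opposite sign. U2AF1, which reads the terminal AG, was at 9.07 to 9.53 in vehicle and 8.42 to 9.01 in doxycycline arrays, with no overlap. It differed by -0.41 (limma, adjusted p = 0.0926). U2AF1 has 2 probe sets, which may read near-identical copies of the gene, and the dimmer one differed by -0.40. U2AF2, which binds the pyrimidine tract, was at 9.50 to 9.65 in vehicle and 9.69 to 9.81 in doxycycline arrays, also with no overlap. It differed by 0.16 (limma, adjusted p = 0.364), with little spread in either group, an SD of 0.06 and 0.05 (n = 5 each). The unmoderated test called U2AF2 higher (adjusted p = 0.0348 over all genes). SF1, the branch point binding protein, differed by 0.0020 (95% CI -0.37 to 0.37, adjusted p = 0.998), and by 0.09 with doxycycline arrays 4 and 5 left out (adjusted p = 0.833).

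Of the 11 SR protein genes 0 passed limma's test, and 9 had lower means in doxycycline tumours, with a median difference of -0.17. Before adjustment 2 of the 11 were lower, against 12.1% of all genes, and 1 was higher, against 12.5%. SRSF3, the smallest SR protein, was at 9.08, 8.85, 8.88, 9.19 and 8.91 in the vehicle arrays and at 8.79, 8.54, 8.81, 8.38 and 8.32 in the doxycycline arrays. The groups did not overlap, and doxycycline arrays 4 and 5 were lowest. The difference was -0.41 (95% CI -0.71 to -0.12, limma, adjusted p = 0.0744). With the trended and robust moderation its adjusted p was 0.0178. With doxycycline arrays 4 and 5 left out the difference was -0.27 (limma, adjusted p = 0.25).

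SRSF1, a splicing factor known as an oncoprotein and MYC target, was at 10.62 to 10.81 in vehicle and 10.20 to 10.74 in doxycycline arrays. The groups overlapped, and doxycycline array 4 was lowest. The difference was -0.17 (95% CI -0.44 to 0.11, limma, adjusted p = 0.464). It was -0.08 with doxycycline array 4 left out (adjusted p = 0.714) and -0.09 with arrays 4 and 5 left out (adjusted p = 0.714). SRSF6 differed by -0.20 with no overlap (adjusted p = 0.275).

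SRSF5 and SRSF8 were the 2 SR genes with higher means in doxycycline tumours. SRSF5 was at 10.18 to 10.23 in vehicle and at 10.34 to 10.57 in doxycycline arrays. Every doxycycline array lay above every vehicle array, and the vehicle arrays had an SD of 0.02 (n = 5), the smallest of the 59 genes. The difference was 0.25 (95% CI 0.03 to 0.47, limma, adjusted p = 0.141). SRSF8 differed by 0.26 with overlapping groups (adjusted p = 0.297).

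The hnRNP genes, apart from copies and a read-through locus, numbered 18, and 16 of them had lower means in doxycycline tumours, with a median difference of -0.22. With limma 0 passed. Before adjustment 6 of the 18 were lower, against 12.1% of all genes, and 0 were higher, against 12.5%. HNRNPF, a binder of G-rich tracts, was at 9.62, 9.78, 9.57, 9.60 and 9.92 in the vehicle arrays and at 9.42, 9.28, 9.45, 9.19 and 9.25 in the doxycycline arrays. The groups did not overlap. The difference was -0.38 (95% CI -0.63 to -0.12, limma, adjusted p = 0.0577), and the unmoderated test called it lower, as did limma without the dimmest genes.

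HNRNPD, also known as AUF1, which binds AU-rich elements of mRNA, was at 9.98 to 10.10 in vehicle arrays. In doxycycline arrays 1 to 5 it was at 9.64, 9.64, 9.84, 9.05 and 9.77. All were below the vehicle arrays, and array 4 was far below the other 4. The difference was -0.46 (95% CI -0.79 to -0.14, limma, adjusted p = 0.0672). Trended and robust moderation, array weights and limma without the dimmest genes each called HNRNPD lower. Without doxycycline arrays 4 and 5 it differed by -0.34 (limma, adjusted p = 0.0857). With 1 array left out, its difference ran from -0.53 to -0.33 (limma, adjusted p from 0.0548 to 0.131).

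HNRNPA1 and HNRNPA2B1, which with PTBP1 set the choice between the exons of pyruvate kinase PKM, differed by less. HNRNPA1 was at 12.06 to 12.17 in vehicle and 11.67 to 12.03 in doxycycline arrays, without overlap, and differed by -0.22 (95% CI -0.46 to 0.02, limma, adjusted p = 0.249). With doxycycline arrays 4 and 5 left out it differed by -0.12 (adjusted p = 0.56). HNRNPA2B1 was at 10.77 to 11.01 and 10.40 to 10.84, with overlap, and differed by -0.26 (95% CI -0.52 to -0.0028, limma, adjusted p = 0.198). HNRNPU, the scaffold attachment factor, differed by -0.30 without overlap (adjusted p = 0.122). HNRNPDL and HNRNPM differed by -0.33 and -0.32 (adjusted p = 0.0914 and 0.0957). HNRNPA0 had the highest difference of the class, 0.16 (adjusted p = 0.507), and HNRNPH2 was the other hnRNP gene with a higher mean.

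PRMT1, the main enzyme of asymmetric arginine methylation, which modifies many hnRNPs, was at 10.38 to 10.68 in vehicle and 10.22 to 10.37 in doxycycline arrays. The groups did not overlap, but lay close together. PRMT1 differed by -0.19 (95% CI -0.42 to 0.04, limma, adjusted p = 0.312). PRMT5, the main enzyme of symmetric arginine methylation, was at 8.33, 8.42, 8.38, 8.30 and 8.41 in the vehicle arrays and at 8.06, 8.19, 8.21, 8.13 and 8.57 in the doxycycline arrays. Doxycycline array 5 was the highest of all 10 arrays, and the other 4 doxycycline arrays lay below all vehicle arrays. PRMT5 differed by -0.14 (limma, adjusted p = 0.538), by -0.22 with doxycycline array 5 left out (adjusted p = 0.223) and by -0.22 with arrays 4 and 5 left out (adjusted p = 0.261).

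The remaining 5 genes are copies, a pseudogene and a read-through locus: HNRNPA1L2, HNRNPCL1, HNRNPCL2, SNRPD2P2 and HNRNPUL2-BSCL2. Their sequences are close to or shared with those of other members, so probes may not tell them apart. Differences ran from -0.26 to 0.25, the groups overlapped in each, and limma called 0 (0 before adjustment as well).

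The classes differed in which doxycycline arrays were lowest. For the Sm ring, the median deviation from each gene's vehicle average was -0.53, -0.44, -0.44, -0.22 and -0.28 across doxycycline arrays 1 to 5, and array 4 deviated least. For the hnRNPs it was -0.17, -0.20, -0.07, -0.47 and -0.22, and array 4 deviated most and array 3 least. Of the 18 hnRNP genes, 12 had array 4 as the lowest doxycycline array and 13 had array 3 as the highest. For the SR genes it was 0.03, -0.04, -0.0037, -0.31 and -0.22. With doxycycline arrays 4 and 5 left out, the median difference of the SR genes was -0.09, and 7 of the 11 were lower. These medians are given as a description, with no test. The mean over proliferation markers was 7.54, 7.27, 7.78, 7.28 and 7.72 in the same arrays, and that over macrophage markers was 4.82, 4.73, 4.69, 5.07 and 5.00. Without doxycycline arrays 4 and 5, the median difference of the 59 genes was -0.15, and 5 fell, against 5.34% of all genes: SNRPD1, SNRPF, SNRPA, SNRPG and SNRPE.

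**Figure D4:**
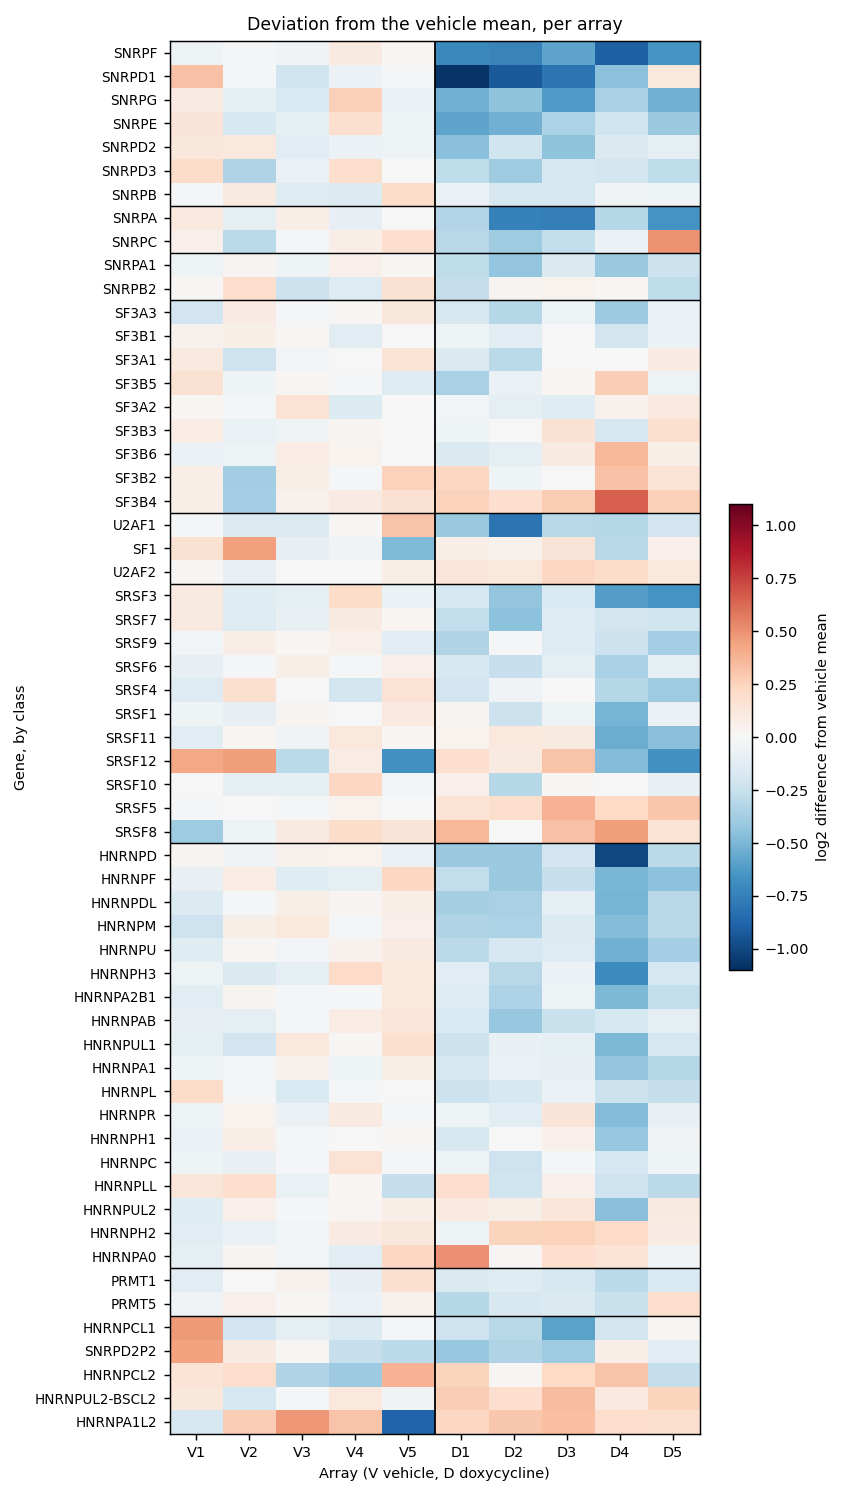
Deviation of each of the 59 genes (rows, by class) from its mean over the vehicle arrays, in log2 units (colour, blue lower and red higher), in 5 vehicle (V) and 5 doxycycline (D) arrays. Most Sm genes are blue in all 5 doxycycline arrays, SNRPD1 in D5 being an exception, and the hnRNP genes are bluest in D4, where the class median was -0.47.

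The E-box CACGTG, a motif bound by MYC with MAX, was looked for in the 250 bases before the start of each gene. Promoters came from RefSeq (GRCh38.p14), which lists 1 start per gene here, and 55 of the 59 genes had one. The motif reads the same on both strands. It was in 6 of the 55, or 10.9%, and in 7.72% of the promoters of all genes tested that had an entry. The 6 genes were HNRNPD, HNRNPDL, HNRNPH2, HNRNPH3, HNRNPM and SF3B1, and none of them passed limma's test. SNRPA, SNRPE, SNRPF and SNRPG had no CACGTG in this window, which says only that these letters are not in it. The scan rests on the 1 listed start of each gene, and for SNRPE and SNRPG that start may lie downstream of the usual first exon, so their windows may not be their promoters.

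The 150 bases before the start are shown for the 2 called genes with the lowest adjusted p and for the 2 hnRNP genes whose E-box lies within 50 bases of the start and whose adjusted p was under 0.1. Capitals mark CACGTG.
SNRPF promoter, chr12:95858802-95858951, plus strand: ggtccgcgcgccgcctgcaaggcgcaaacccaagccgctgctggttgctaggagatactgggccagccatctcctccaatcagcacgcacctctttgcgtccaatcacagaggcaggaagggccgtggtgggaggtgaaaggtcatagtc
SNRPA promoter, chr19:40751053-40751202, plus strand: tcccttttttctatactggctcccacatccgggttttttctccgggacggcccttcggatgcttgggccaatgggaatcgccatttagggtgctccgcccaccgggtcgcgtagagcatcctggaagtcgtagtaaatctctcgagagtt
HNRNPD promoter, chr4:82373992-82374141, minus strand: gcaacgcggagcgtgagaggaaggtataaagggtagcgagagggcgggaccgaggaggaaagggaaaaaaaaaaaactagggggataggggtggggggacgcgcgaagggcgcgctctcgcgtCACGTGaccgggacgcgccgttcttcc
HNRNPM promoter, chr19:8444825-8444974, plus strand: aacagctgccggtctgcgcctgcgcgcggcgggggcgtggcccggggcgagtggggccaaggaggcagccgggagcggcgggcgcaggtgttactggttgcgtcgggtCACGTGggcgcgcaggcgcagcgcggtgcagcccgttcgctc
In HNRNPD the motif begins 27 bases before the start, and in HNRNPM 42 bases before it. HNRNPH2, not shown, holds 2 copies, which begin 42 and 9 bases before the start, and differed by 0.15 (limma, adjusted p = 0.472). In HNRNPH3, also not shown, the motif begins 50 bases before the start, and the gene differed by -0.28 (limma, adjusted p = 0.26). The 6 genes with the motif had differences from -0.46 to 0.15, with a median of -0.30. The other 49 had differences from -0.71 to 0.33, with a median of -0.14. Whether the motif goes with the size of the difference was not tested.

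Other genes of splicing were taken from 12 lists by role, of which 171 genes were measured and are not among the 59. Of these 171, 10 fell (5.85%, against 5.95% of all genes) and 1 rose (against 5.03% of all genes), with a median of -0.08. Falls numbered 4 when vehicle array 1, 4 or 5 was left out, 5 when vehicle array 3 or doxycycline array 1 or 2 was, and 3 with the replicate number as a block. Rises numbered 0 when vehicle array 1, 2 or 3 was left out, 2 when doxycycline array 1 was, and 4 when doxycycline array 5 was.

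Of 17 genes of the U4/U6.U5 particle and of spliceosome activation, 2 fell, TXNL4A and PRPF38A (11.8%, against 5.95% of all genes). TXNL4A, a small protein of U5, was at 8.39 ± 0.15 in the vehicle group and at 7.04 ± 0.14 in the doxycycline group (mean ± SD, 5 tumours each) and fell by 1.35 (limma, adjusted p = 4.37e-05), the largest difference among these genes. PRPF38A, needed for activation of the spliceosome, fell by 0.65 (adjusted p = 0.0053). The LSM proteins are relatives of the Sm proteins and form similar rings, among them the one on U6 RNA, to which LSM3 and LSM7 belong. Of 9 LSM genes 2 fell (22.2%, against 5.95% of all genes). LSM3 fell by 0.61 (limma, adjusted p = 0.00413) and LSM7 by 0.47 (adjusted p = 0.0422). LSM11, of the U7 snRNP, differed by -0.90 and did not pass.

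Of 19 genes of the SMN complex and snRNP assembly, 1 fell (5.26%, against 5.95% of all genes). RIOK1, an adaptor of PRMT5, fell by 0.59 (limma, adjusted p = 0.0361). GEMIN4 had the lowest difference of that list, -0.65, and WDR77, the constant partner of PRMT5, the highest, 0.47; neither passed. The minor spliceosome removes a rare class of introns. Of its 8 genes 1 rose, against 5.03% of all genes, and 1 fell, against 5.95%. CENATAC rose by 0.76 (limma, adjusted p = 0.0213). SNRNP25, also 1 of 7 genes named SNRNP, fell by 0.45 (limma, adjusted p = 0.0394).

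Of 39 other splicing regulators 2 fell (5.13%, against 5.95% of all genes). PTBP3, a paralogue of PTBP1, fell by 0.44 (limma, adjusted p = 0.0217) and SFPQ by 0.34 (adjusted p = 0.0449). Of 14 genes of the exon junction complex and nuclear speckle, 1 fell (7.14%, against 5.95% of all genes). THOC1 fell by 0.55 (limma, adjusted p = 0.0461). Of 7 other arginine methyltransferases 1 fell (14.3%, against 5.95% of all genes). CARM1 fell by 0.47 (limma, adjusted p = 0.0315). With limma, 0 of 22 PRP19 complex and catalytic-step genes, 0 of 8 helicases, 0 of 17 factors associated with U1, U2 and the branch site and 0 of 9 SR protein kinases and transporters passed. Before adjustment these 4 lists held 1, 1, 3 and 0 lower and 0, 1, 1 and 0 higher genes. Among all genes, 12.1% were lower and 12.5% higher before adjustment.

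**Figure D5:**
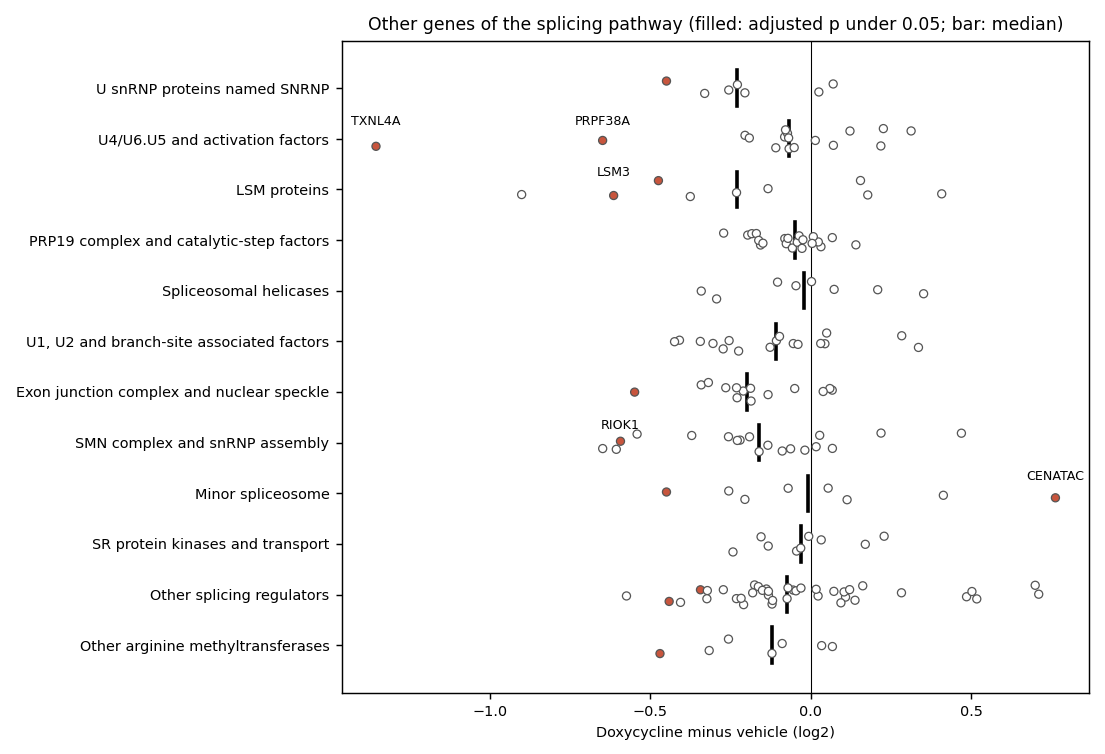
Difference between doxycycline and vehicle (log2, x axis) of 171 other splicing genes in 12 lists by role (y axis; 1 point per gene and list, 5 arrays per group), with the median of each list as a bar. Filled points have an adjusted p under 0.05; TXNL4A, at -1.35, lies far to the left of all others, and CENATAC is the only filled point right of 0.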

How the data were processed

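Total RNA of 10 frozen A375 tumours was hybridised to Affymetrix arrays, per the labels. The authors deposited log2 values, for which the submitters' processing notes name RMA. RMA brings the probe values of all arrays to 1 distribution before they are combined into probe sets. A change shared by all transcripts would thus largely not show, though the array medians over genes still ran from 5.45 to 5.56. Software versions and the genome build of the probes are not stated in the labels.

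Of 18569 probe sets, 17511 had 1 gene symbol, 0 several and 1058 none. For the 17 genes with several probe sets, the one with the highest mean was used, which left 17492 genes. Mouse host RNA can hybridise to human probes. The number of arrays limits the precision.

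Doxycycline was compared with vehicle by a moderated two-sided test over 10 arrays (lmFit, then eBayes, of limma 3.58.1 under R 4.3.3), and p-values were adjusted by Benjamini-Hochberg across the whole table and called under 0.05. The genes and lists were chosen with earlier results of these data known. Across the alternatives 31 genes were followed. These were the genes past the threshold, 13 measured ones fixed by name, those without overlap and the extremes of each class. Some of them were given by difference and adjusted p only, and the extremes of the copies by a range only. HNRNPDL, HNRNPM and LSM11 were picked once values were known.

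Alternatives tried were median centring, the replicate number as a block, a second quantile normalization, trended and robust moderation, an unmoderated test with unequal variances, array weights, removal of dim genes, other uses of probe sets, a minimum change of 1.5-fold, and arrays left out. Tested on simulated data for this comparison over 17492 genes, limma recovered 22.4% of genes changed by 0.5 on the log2 scale. It recovered 65.7% at a change of 1 and 95.5% at a change of 2, with 8 false calls among 130. Those data held 67, 67 and 66 changed genes at these sizes, far fewer than the 880 that rose and 1041 that fell here. The adjustment is stricter when fewer genes change, so these rates do not give the recovery in the real data. Same-numbered arrays of the groups had correlated deviations of -0.06 to 0.19 over genes, so the number was not taken as pairing.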

Additional observations from a re-analysis of the deposited data

Results flagged for a closer look

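In 7 of 118 groups of 5 arrays (59 genes in 2 groups), 1 array lay far from the other 4 for the range of the group, by Dixon's ratio. Chance gives about 1 in 20 such groups. Doxycycline array 4 was that array in 4 genes. It had HNRNPD at 9.05, against 9.64 for the nearest doxycycline array, HNRNPUL2 at 7.99 against 8.52, SF1 at 5.71 against 6.07 and SF3B4 at 10.60 against 10.22. In vehicle, SF3B4 was at 9.57 in array 2, against 9.99 for the nearest, HNRNPCL1 at 5.95 in array 1, against 5.46, and SRSF5 at 10.23 in array 4, against 10.19. What sets these arrays apart was not tested.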

How the results depend on the processing

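Falls numbered 4 in the comparison as reported. They numbered 16 with trended and robust moderation, 8 without the dimmest 30% of genes, 1 with a minimum change of 1.5-fold, and 2 to 4 with 1 array left out. Rises numbered 0 as reported, 2 with trended and robust moderation (SRSF5 and SF3B4) and 2 with the unmoderated test of unequal variances (U2AF2 and SRSF5), and 0 to 0 with 1 array left out. With the replicate number as a block 3 genes fell, SNRPF, SNRPG and SNRPA. Same-numbered arrays correlated at -0.06 to 0.19 in their deviations, so that fit does not rest on a known pairing. The cause of these changes in count was not tested. Over the 31 genes followed through the alternatives, 580 results kept direction and side of the threshold, 23 gained a call and 14 lost one. The 14 include SNRPA, SNRPG and SNRPE under the minimum change of 1.5-fold, which filters the reported fit without refitting. SF1 changed sign in 7 of the fits that left out 1 array, with differences from -0.12 to 0.11, around a value of 0.0020 as reported.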
